A study of Homo sapiens with 2 samples.

Results

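The segment described here is the sequence of chromosome 4 between 90 and 100 Mb on GRCh37 (hg19), which was chosen because, of the 313 consecutive 10 Mb segments of the nuclear chromosomes, it lost the most methylation in OCI-AML3 relative to OCI-AML5. It was divided into 1000 consecutive bins of 10 kb, and 999 of them held at least 10 CpG dinucleotides (CpGs) with more than 5 reads in each line. These 999 bins are the regions described, out of 281813 such bins in the nuclear genome. The bin at chr4:92480001-92490000 was left out because it held 8 such CpGs of 19 listed, and the members closest to the limit, at chr4:92590001-92600000 and chr4:93160001-93170000, held 10 each.

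The data are whole-genome bisulfite sequencing (WGBS) of 2 established acute myeloid leukemia (AML) cell lines. OCI-AML3 carries DNMT3A with the R882C mutation on 1 of its alleles, and OCI-AML5 has wild-type DNMT3A. The labels give the same culture conditions for both. There was 1 library per line, so no difference below has a replicate check and effects of the mutation cannot be told apart from any other difference between lines derived from different patients. The libraries held 902802339 calls in OCI-AML3 and 894828667 in OCI-AML5, with medians of 27 and 30 calls per nuclear CpG.

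Bisulfite treatment converts unmethylated cytosine and leaves 5-methylcytosine, so the share of reads that keep a C at a CpG is its methylation level. DNMT3A is one of the enzymes that place methyl groups on DNA without a methylated template, while DNMT1 copies the pattern after replication. Most of the human genome outside CpG islands is highly methylated. Partially methylated domains are long, gene-poor, CpG-poor stretches of intermediate level that are known from cultured and cancer cells, and within them isolated CpGs between A or T bases ("solo" CpGs) are those most prone to be unmethylated.

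The sequences below show what the CpGs of the segment look like, with each CpG in capitals, on the plus strand of GRCh37. The 3 stretches are the 300 bases just before the transcription start site (TSS, the most upstream one of all transcripts) of the genes described below whose promoters differed most between the lines. They are shown because the direction of the difference was not the same in them. CCSER1 lies at chr4:91048245-91048544, BMPR1B at chr4:95678806-95679105 and MMRN1 at chr4:90800383-90800682.
CCSER1: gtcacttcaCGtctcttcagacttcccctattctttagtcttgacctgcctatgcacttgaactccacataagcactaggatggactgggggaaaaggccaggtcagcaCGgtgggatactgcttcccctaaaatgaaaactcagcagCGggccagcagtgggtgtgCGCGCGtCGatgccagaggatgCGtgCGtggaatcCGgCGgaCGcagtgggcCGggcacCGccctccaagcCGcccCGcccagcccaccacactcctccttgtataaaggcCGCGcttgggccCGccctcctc
BMPR1B: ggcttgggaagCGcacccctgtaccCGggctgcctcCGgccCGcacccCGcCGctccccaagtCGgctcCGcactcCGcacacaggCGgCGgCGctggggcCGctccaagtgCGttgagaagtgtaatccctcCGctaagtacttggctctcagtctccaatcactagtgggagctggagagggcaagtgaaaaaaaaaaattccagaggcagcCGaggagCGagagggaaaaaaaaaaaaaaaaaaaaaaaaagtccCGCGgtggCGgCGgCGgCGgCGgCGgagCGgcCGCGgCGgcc
MMRN1: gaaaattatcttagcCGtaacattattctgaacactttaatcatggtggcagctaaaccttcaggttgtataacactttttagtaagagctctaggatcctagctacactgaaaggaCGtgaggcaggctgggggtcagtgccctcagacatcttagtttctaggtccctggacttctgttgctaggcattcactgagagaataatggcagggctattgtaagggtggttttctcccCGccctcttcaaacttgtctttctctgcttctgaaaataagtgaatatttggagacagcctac
The 19 CpGs before CCSER1 averaged 79.9% methylation in OCI-AML3 and 0.688% in OCI-AML5, from 610 and 555 calls. Before BMPR1B, 22 of 29 CpGs were read often enough, and there the order was turned, with 2.502% in OCI-AML3 and 46.7% in OCI-AML5. The stretch before MMRN1 is CpG-poor, and its 3 CpGs averaged 43.7% in OCI-AML3 and 95.8% in OCI-AML5.

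The next windows show single CpGs behind the loss. Each holds 30 bases on either side of a CpG with 30 or more calls in both lines, outside CpG islands and exons, in 10 kb bins that were lower in OCI-AML3 by 20 percentage points or more. The solo window was taken from the 814 CpGs with no other CpG within 35 bp and A or T on both sides, and the dense window from the 259 CpGs with 3 or more others within 35 bp and C or G on both sides. Each is among the 4 sites closest to the median difference of its class, so it stands for a common site and not for an extreme.
solo: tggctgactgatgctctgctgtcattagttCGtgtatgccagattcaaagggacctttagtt
dense: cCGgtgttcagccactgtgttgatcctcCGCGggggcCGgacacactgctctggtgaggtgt
The solo window lies at chr4:90992806-90992867 and the dense window at chr4:92966986-92967047, both outside protein-coding genes. The middle CpG of the solo window was methylated in 6.06% of 33 calls in OCI-AML3 and 47.4% of 38 in OCI-AML5. That of the dense window was methylated in 92.3% of 39 calls and in 100% of 54. Of the 814 solo sites, 761 were lower and 35 higher in OCI-AML3. Their median difference was -41.1 percentage points. Of the 259 dense sites 201 were lower and 49 higher, with a median of -7.69 points. All these sites lie in bins picked for being lower, in a segment chosen on the same contrast. That most were lower is thus largely set by the choice, and nothing is read from it.

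The segment had an intermediate methylation level in OCI-AML3 and a high one in OCI-AML5. Its 47236 CpGs with more than 5 reads in each line averaged 55.04% in OCI-AML3 and 77.1% in OCI-AML5, which is the difference of -22.0 points that chose the segment. Of all calls at these CpGs, 56.2% were methylated in OCI-AML3 (95% Wilson interval 56.1 to 56.3, 1165542 calls) and 77.5% in OCI-AML5 (77.4 to 77.5, 1408605 calls). Intervals cover counting error only, and calls of 1 read are not independent. The segment that came next, chr4:60000001-70000000, differed by -19.2 points, and the next after it, chr7:80000001-90000000, by -18.3 points. Neighbouring sequence was less affected, with 66.4% against 78.2% in the preceding 10 Mb and 71.5% against 81.8% in the following 10 Mb. Over the autosomes the levels were 67.7% and 75.4%.

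The lower mean went with more CpGs near 0 and fewer near full methylation. In OCI-AML3, 28.1% of the segment's CpGs were under 20%, against 8.87% in OCI-AML5. CpGs over 80% made up 39.9% in OCI-AML3 and 67.4% in OCI-AML5, and those in between 32.1% and 23.7%. A share of 16.0% had no methylated call in OCI-AML3, against 4.04% in OCI-AML5. Over the autosomes the CpGs under 20% were 18.9% in OCI-AML3 and 12.6% in OCI-AML5. Fisher's exact test per CpG on the 2 libraries, with Benjamini-Hochberg adjustment over all 24454751 nuclear CpGs tested, gave 14015 CpGs of the segment (29.7%) as lower at adjusted p under 0.05 and 1046 (2.21%) as higher. The nuclear background was 14.7% lower and 3.86% higher. This test covers the sampling of reads between these libraries and not the lines, and the segment was chosen on the same contrast, so nothing is read from the excess.

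The depth behind these levels was lower than elsewhere. The segment's listed CpGs had a mean of 19.7 calls in OCI-AML3 and 24.95 in OCI-AML5, against 32.9 and 32.5 over the autosomes, and 77.5% of them were read often enough in both lines, against 88.2%. Low depth in OCI-AML3 alone removed 7860 CpGs, in OCI-AML5 alone 523, and in both 5329. Groups by depth were taken outside CpG-dense islands (defined below), where the difference of the segment was -23.4 points. Among such CpGs with more than 30 calls in OCI-AML3 the difference was -20.6 points (12173 CpGs). Among those with 6 to 10 calls it was -27.4 points (8284 CpGs). Grouped by calls in OCI-AML5 instead, the difference showed no such trend and lay between -23.0 and -24.5 points. In bins of like CpG number, with 45 to 70 listed CpGs, the median levels were 45.8% and 76.9% over 517 bins of the segment, and 65.1% and 74.7% over 86998 bins of the other autosomal sequence.

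In OCI-AML3 the bins ranged from 11.4% to 97.5%, with a median of 46.5% and an interquartile range of 34.7% to 63.1%. In OCI-AML5 they ranged from 15.1% to 96.2%, with a median of 76.9% and an interquartile range of 66.3% to 89.6%. The difference had a median of -27.0 points and ran from -75.3 to 54.97. A bin lower in OCI-AML3 by 20 points or more is counted as past the limit here, and 649 of 999 bins (64.96%) were. Over the nuclear genome the share was 17.0%. It was 32.5% in the preceding and 23.2% in the following 10 Mb. Only 2 bins were higher by 20 points or more, against a nuclear background of 2.85%. Lower by 50 points or more were 84 bins (8.41%, against 0.719% in the nuclear genome). Near the limit lay chr4:97540001-97550000 just past it (-20.08 points), and chr4:95350001-95360000 and chr4:98940001-98950000 just short of it (-19.94 and -19.85).

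A level under 70% is used here to mark partial methylation. By that mark 488 bins (48.8%) were partially methylated in OCI-AML3 alone, against 17.1% of the nuclear bins. The share was 27.1% in the preceding 10 Mb, 25.2% in the following 10 Mb and 25.8% over the rest of chromosome 4. Another 312 bins of the segment (31.2%) were partially methylated in both lines, close to the nuclear share of 31.4%. The remaining bins were 190 at 70% or more in both lines and 9 under 70% in OCI-AML5 alone. The segment thus held stretches that were already of intermediate level in the DNMT3A wild-type line, and stretches that were highly methylated there. CpGs within a bin were also more uneven in OCI-AML3, where the median SD over the CpGs of a bin was 33.8 points, against 25.02 in OCI-AML5. This was not particular to the segment. The same medians were 30.3 and 25.6 points over the nuclear genome. They were 30.5 and 20.8 points in the preceding 10 Mb, and 25.5 and 17.8 points in the following 10 Mb.

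**Figure D1:**
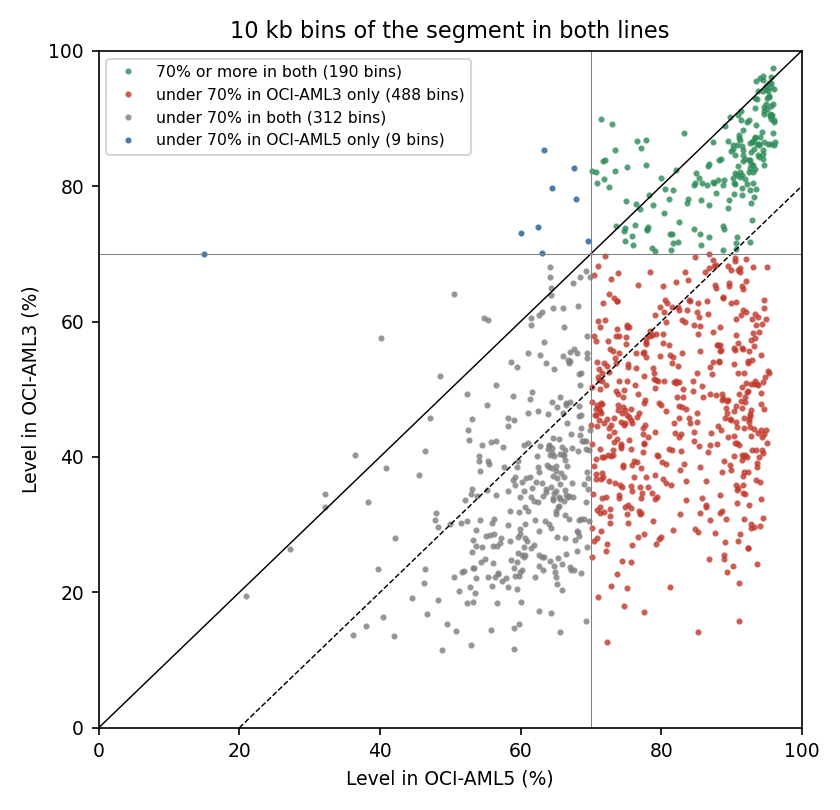
Mean methylation level (%) of each of the 999 bins of 10 kb in OCI-AML5 (x axis) and OCI-AML3 (y axis). Points on the solid line are equal in both lines and points below the dashed line are lower in OCI-AML3 by 20 points or more. The 488 bins under 70% in OCI-AML3 alone fill the lower right, and 1 bin lies far above the line, at 15.1% in OCI-AML5 and 70.02% in OCI-AML3.

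The loss was not spread evenly along the 10 Mb. Between 90 and 91 Mb the level was 54.0% in OCI-AML3 and 85.1% in OCI-AML5, and 84 of 100 bins were past the limit. The second megabase, 91 to 92 Mb, had the greatest difference, 43.5% against 87.6%, with 99 of 100 bins past the limit. From 92 to 95 Mb OCI-AML3 stayed between 40.3% and 42.1% per megabase, while OCI-AML5 stood at 66.5% to 74.0%. The smaller difference there went with a lower level in OCI-AML5, at nearly the same level in OCI-AML3. From 95 to 97 Mb OCI-AML3 rose to 73.3% and then 65.04%, with differences of -6.81 and -10.4 points from OCI-AML5. It was low again at 97 to 99 Mb, with 42.9% and 39.0%, and reached 76.2% against 82.9% in the last megabase, where 7 of 100 bins were past the limit.

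**Figure D2:**
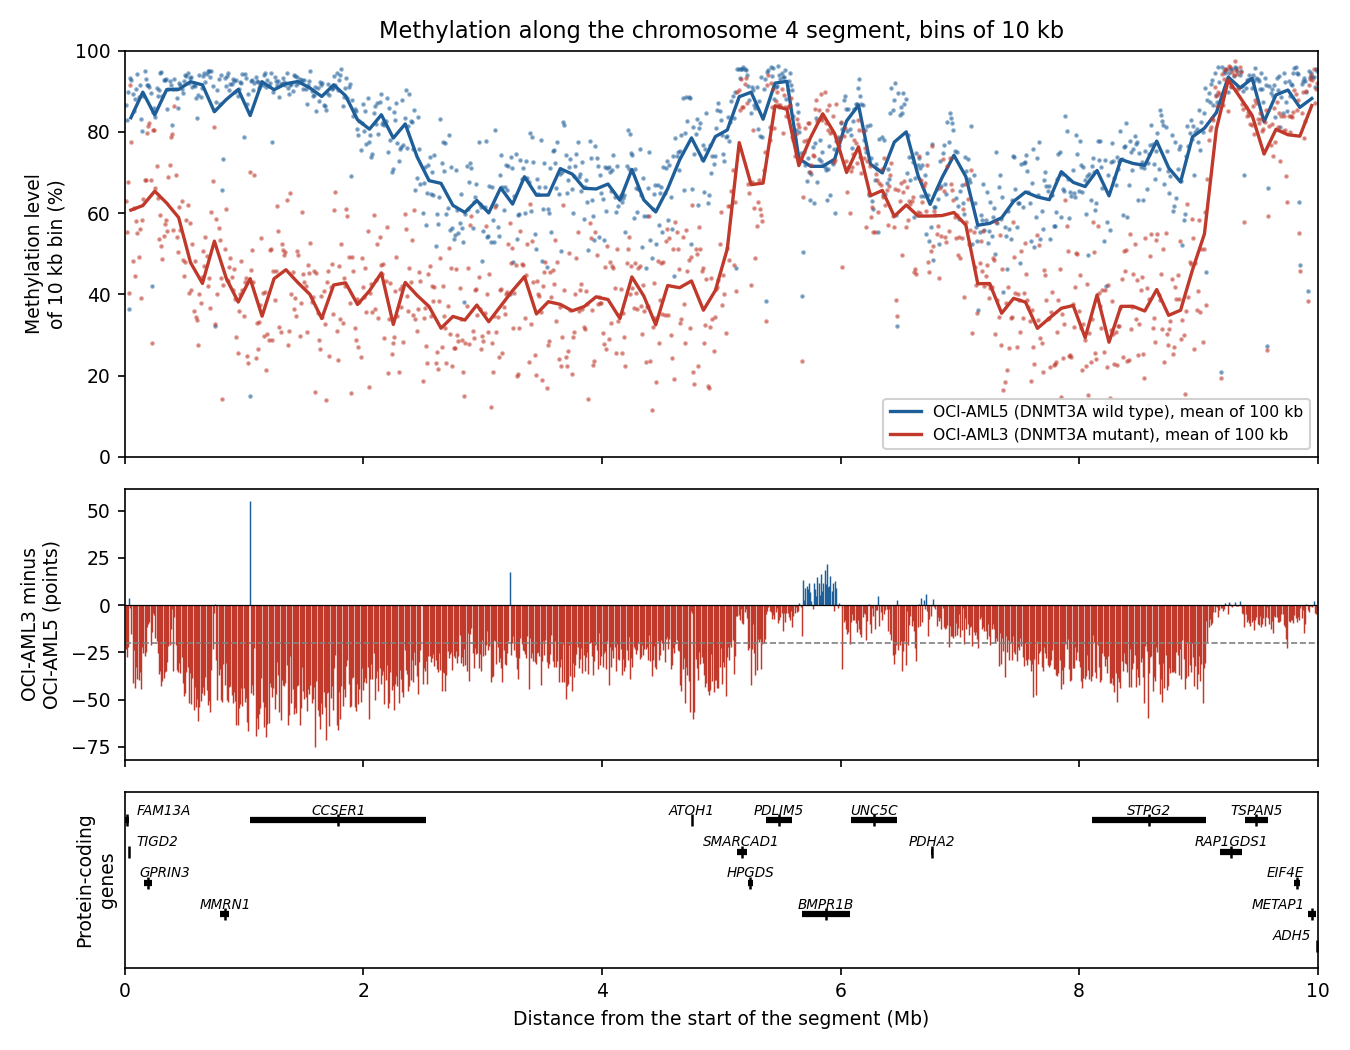
Methylation along the segment against distance from its start (Mb). The top panel gives the level (%) of each 10 kb bin (points) and the mean over 100 kb (lines) for both lines, the middle panel the difference of each bin in percentage points with the 20-point limit dashed, and the bottom panel 18 protein-coding genes. OCI-AML3 lies near 40% from 1 to 5 Mb and from 7 to 9 Mb, and both lines are high around 5.5 Mb and after 9.1 Mb.

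The bins past the limit lay next to each other. Allowing at most 1 other bin between them, they formed 26 runs, and the 4 runs of 500 kb or more held 481 of the 649 bins over 5120 kb. The longest run, chr4:90760001-92890000, was 2130 kb long, held 209 bins past the limit and covered MMRN1 and CCSER1. Its level was 42.2% in OCI-AML3 and 83.0% in OCI-AML5. Its length depends on the gap allowed and was 1430 kb with none and 4850 kb with up to 3 other bins. The runs at chr4:97320001-98110000 (790 kb) and chr4:98130001-99060000 (930 kb) covered the gene-poor sequence before the 3′ end of STPG2 and then STPG2 itself, with 37.6% and 40.0% in OCI-AML3. Bins 10 kb apart differed alike (Pearson r of their differences 0.760, 997 pairs), and this likeness faded to 0.666 at 100 kb, 0.475 at 500 kb and 0.182 at 1000 kb. These are descriptions over bins that share both libraries.

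Bins at 70% or more in both lines also lay together, with the same gap of at most 1 other bin allowed. The run at chr4:99080001-99570000 (490 kb) covered RAP1GDS1 and most of TSPAN5, with 81.5% in OCI-AML3 and 86.8% in OCI-AML5, and the run at chr4:95350001-95670000 (320 kb) covered PDLIM5. By the same rule, the longest run of bins higher in OCI-AML3 was chr4:95680001-96010000 in BMPR1B. It was 330 kb long with 30 bins higher, and a few bins within it were not. Its level was 80.6% in OCI-AML3 and 72.3% in OCI-AML5.

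The 5 deepest losses included 4 bins of CCSER1. The bin at chr4:91590001-91600000 had 15.8% in OCI-AML3 and 91.1% in OCI-AML5 over 15 CpGs. At chr4:91680001-91690000 the levels were 14.1% and 85.3% over 31 CpGs, and at chr4:91180001-91190000 they were 21.4% and 91.1% over 25 CpGs. The greatest gain was in the same gene, at the bin that holds its start, chr4:91040001-91050000. There 167 CpGs stood at 70.02% in OCI-AML3 and 15.1% in OCI-AML5. The next greatest gains were chr4:95880001-95890000 in BMPR1B (85.3% against 63.3%) and others within that gene.

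Of the 88 annotated genes that overlap the segment, 20 are protein-coding, 33 are long non-coding RNAs and 21 are processed pseudogenes. Each of the 20 had 10 or more CpGs read often enough in its body and in its promoter window, which reached 2000 bp to each side of the start site. A body runs over the whole gene and so includes the part of the promoter window that lies within the gene. Gene bodies were lower in OCI-AML3 in 18 of 20, and by 20 points or more in 6, among them MMRN1, CCSER1, HPGDS and STPG2, where the background over all protein-coding genes was 6.57%. None was higher by that much (background 0.608%). The median difference of the 20 bodies was -7.31 points, against -4.97 over all genes tested. Promoters were lower in 12 and higher in 8, with 1 lower by 20 points or more (MMRN1, background 8.61%) and 1 higher (CCSER1, background 1.79%). Their median difference was -1.69 points, against -4.68 over all genes. The promoter counts depend on the window. With 1000 bp to each side, BMPR1B (-22.2 points) and ATOH1 (20.6 points) were also past the limit. With the 2000 bp upstream alone, BMPR1B (-37.8 points) and HPGDS (-22.7 points over 10 CpGs) were, and CCSER1 was higher by 31.5 points. As shares of pooled calls, in place of means over CpGs, 19 of 20 bodies were lower and 6 of them past the limit, with a median of -10.5 points. By that measure 13 promoters were lower, with 1 past the limit and 2 higher by as much. Pooled calls give more weight to CpGs read more often, also to those of the promoter window within a body. For bodies and promoters lower by any amount, the share over all protein-coding genes was not counted. Among 10 kb bins, 94.9% of the segment and 84.1% of the nuclear genome were lower by any amount. Nothing is therefore read from the counts of any direction. The comparison behind all these counts is the one that chose the segment.

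CCSER1 (ENSG00000184305.16, chr4:91048545-92526446, plus strand), a very long gene for a coiled-coil serine-rich protein, showed both directions at once. Its body had 43.5% in OCI-AML3 and 85.5% in OCI-AML5 over 6125 CpGs, and all 146 bins that lie wholly in it were past the limit. Its promoter had 71.01% in OCI-AML3 and 11.7% in OCI-AML5 over 161 CpGs. By Fisher's exact test across the libraries, 134 of the 161 were higher and 7 lower. The CpG-dense island at the start, chr4:91048061-91049923, had 72.7% in OCI-AML3 and 2.84% in OCI-AML5, and 142 of its 144 CpGs were higher in OCI-AML3. The sequence printed above for CCSER1 lies in this island. Away from the start, OCI-AML3 stayed between 37.4% and 47.9% in each 100 kb of the gene. OCI-AML5 fell along it, from 91.0% to 92.0% at 100 to 500 kb from the TSS to 70.6% at 1400 to 1500 kb.

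Genes of neurons included GPRIN3, UNC5C and ATOH1. ATOH1 (chr4:94749904-94752115), a transcription factor of neural and sensory cells, had a short body with 69.1% and 56.5% and a promoter with 64.0% and 52.2%. All CpGs of that body read often enough lie in the promoter window, so these values are not separate. GPRIN3 had 66.7% and 83.4% in its body and 27.8% and 39.6% in its promoter. UNC5C, a netrin receptor, had 67.9% and 77.7% in its body and 29.8% and 30.8% in its promoter.

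The blood and vessel genes were MMRN1 and HPGDS. MMRN1 (chr4:90800683-90875780), which encodes the platelet and endothelial protein multimerin 1, was lower in OCI-AML3 throughout. Its body had 41.4% and 86.9%, and its 6 whole bins were all past the limit. Its CpG-poor promoter had 38.9% and 91.1% over 11 CpGs. Methylated calls in that promoter made up 39.5% (33.1 to 46.3) of 205 in OCI-AML3 and 93.1% (90.0 to 95.2) of 375 in OCI-AML5. HPGDS, the hematopoietic prostaglandin D synthase, had 66.3% and 89.2% in its body and 81.3% and 91.2% in its promoter, where the difference was larger upstream of the TSS, as given above.

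BMPR1B (chr4:95679106-96079599), a receptor for bone morphogenetic proteins, had a promoter that was lower in OCI-AML3. The direction of its body depended on the averaging and on the stretch. The body had a mean of 75.5% in OCI-AML3 and 72.0% in OCI-AML5, but as a share of pooled calls 72.2% and 72.8%. Without the promoter window its mean was 78.9% and 74.5%. Its 39 whole bins had a median difference of 8.42 points, and 1 of them was past the limit. Its promoter had 14.5% against 31.4%, with 58 of 161 CpGs lower and 15 higher by the test across libraries. In the island at its start, chr4:95678600-95680017, the levels were 7.32% and 30.04%, and 116 of 138 CpGs were lower in OCI-AML3. Within the gene, OCI-AML3 was the higher at 100 to 300 kb from the TSS (85.5% and 81.6%, against 74.5% and 71.7%) and the lower at 300 to 400 kb (71.9% against 82.8%). PDLIM5, which encodes a cytoskeletal scaffold protein, had a mean of 81.2% and 86.1% in its body, and 74.3% and 85.6% of pooled calls. Without the promoter window its mean was 86.9% and 92.3%.

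STPG2 (chr4:98105244-99064627, minus strand) was another gene with a long loss. Its body had 40.3% in OCI-AML3 and 73.5% in OCI-AML5, with 90 of 95 whole bins past the limit. Its promoter had a mean of 34.5% and 34.3%, and 29.0% and 34.8% of pooled calls. Within that window, the island at the start, chr4:99064257-99065106, had 4.70% and 4.56%. The loss ended near its TSS. The 100 kb inside the gene had 43.8% in OCI-AML3, and the 100 kb beyond the TSS 81.0%, against 77.4% and 87.2% in OCI-AML5. At the 3′ end of CCSER1 no such step was seen, with 36.3% inside and 36.8% outside in OCI-AML3. PDHA2, a testis form of a pyruvate dehydrogenase subunit, was methylated in both lines, with a promoter at 79.3% and 81.9%.

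**Figure D3:**
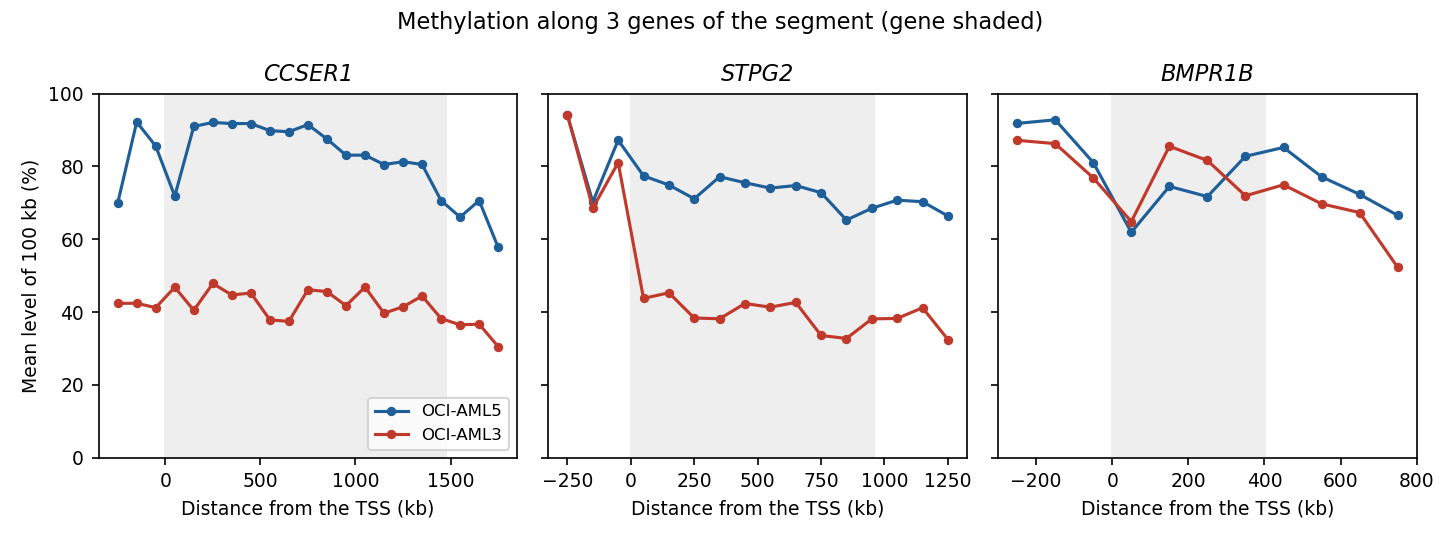
Mean level (%) in steps of 100 kb against distance from the TSS (kb, positive into the gene) for CCSER1, STPG2 and BMPR1B, with the gene shaded and both lines drawn. OCI-AML3 runs flat near 40% through CCSER1, steps from 81.0% to 43.8% at the TSS of STPG2, and lies above OCI-AML5 at 100 to 300 kb of BMPR1B.

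RAP1GDS1, an exchange factor for small GTPases, had 85.1% and 85.6% in its body and 7.13% and 8.89% in its promoter. TSPAN5, a tetraspanin, had 78.8% and 86.7% in its body and 13.1% and 12.2% in its promoter. The cap-binding translation factor EIF4E had 73.0% and 79.6% in its body and 4.67% and 10.6% in its promoter. With 2000 bp to each side, these 3 were the promoters under 20% in both lines. METAP1, a methionine aminopeptidase, had a mean of 74.3% and 76.6% in its body, and 67.8% and 77.5% of pooled calls. ADH5, which crosses the end of the segment, had a mean of 74.5% and 76.7%, and 71.4% and 78.1% of pooled calls. SMARCAD1, a chromatin remodeler, had 83.5% and 87.9%. Bodies without the promoter window were higher, with 93.3% and 93.7% in RAP1GDS1, 83.7% and 92.4% in TSPAN5, and 88.6% and 94.8% in EIF4E. So measured, METAP1 had 91.5% and 93.6%, ADH5 93.0% and 93.9%, and SMARCAD1 90.8% and 95.3%. FAM13A, which lies mostly before the segment, had 75.4% and 86.6% over its whole body, and its 3 whole bins inside the segment were all past the limit. TIGD2, which shares its promoter, had 29.5% and 30.3% over a short body that overlaps the promoter window. The promoters of PDLIM5, SMARCAD1, METAP1, ADH5, FAM13A and TIGD2 lay between 21.1% and 37.9% in OCI-AML3 and between 18.7% and 39.5% in OCI-AML5. These levels depend on the window. Within 1000 bp of the start site the same promoters lay between 1.26% and 15.2% in OCI-AML3 and between 2.55% and 13.9% in OCI-AML5. Each was thus under 20% in both lines near its start.

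CpGs were then grouped by what the annotation places there. Introns outside promoters (25721 CpGs) had 56.8% in OCI-AML3 and 80.9% in OCI-AML5, and sequence outside all genes (12851 CpGs) had 55.2% and 77.7%. The 877 CpGs in exons outside promoters had 69.8% and 87.0%. Promoters of protein-coding genes (2421 CpGs) had 31.5% and 28.0%, an order that rests on CCSER1, since the other 2260 CpGs had 28.7% and 29.1%. The segment held 36 CpG-dense islands (windows of 500 bp or more with at least 55% G and C and an observed to expected CpG ratio of at least 0.65), 35 of them with 10 or more CpGs read often enough. Of these, 9 were under 20% in both lines. Islands lower by 20 points or more numbered 3 (background 7.47%) and islands higher by as much 2 (background 3.16%). The lower ones were the BMPR1B island, an island in a CCSER1 intron at chr4:91281087-91281811 (67.7% against 92.7%) and one outside genes at chr4:92712651-92713262 (57.7% against 91.1%). Those higher included the CCSER1 island given above.

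The level of a CpG outside islands followed its sequence in both lines, and more steeply in OCI-AML3. The 7920 solo CpGs with A or T on both sides had 31.9% in OCI-AML3 and 63.2% in OCI-AML5. With 3 or more other CpGs within 35 bp and C or G on both sides, as in the dense windows above, the levels were 84.3% and 92.1% over 2068 CpGs. In the bins past the limit the solo CpGs fell to 16.9% in OCI-AML3, where 73.0% of them were under 20%, while OCI-AML5 kept 60.7%. The dense class in those same bins kept 78.9% and 92.6%. In the bins at 70% or more in both lines, solo CpGs stood at 69.1% and 80.4%. On the other autosomal sequence they stood at 51.3% and 63.4%, and the dense class there at 84.7% and 88.9%. The course was thus steeper in OCI-AML3 outside the segment too. The bins past the limit were picked for a low level in OCI-AML3 relative to OCI-AML5, so their values partly follow from that choice. Over the whole segment the solo level was within 1 point of the autosomal solo level in OCI-AML5 and well under it in OCI-AML3.

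**Figure D4:**
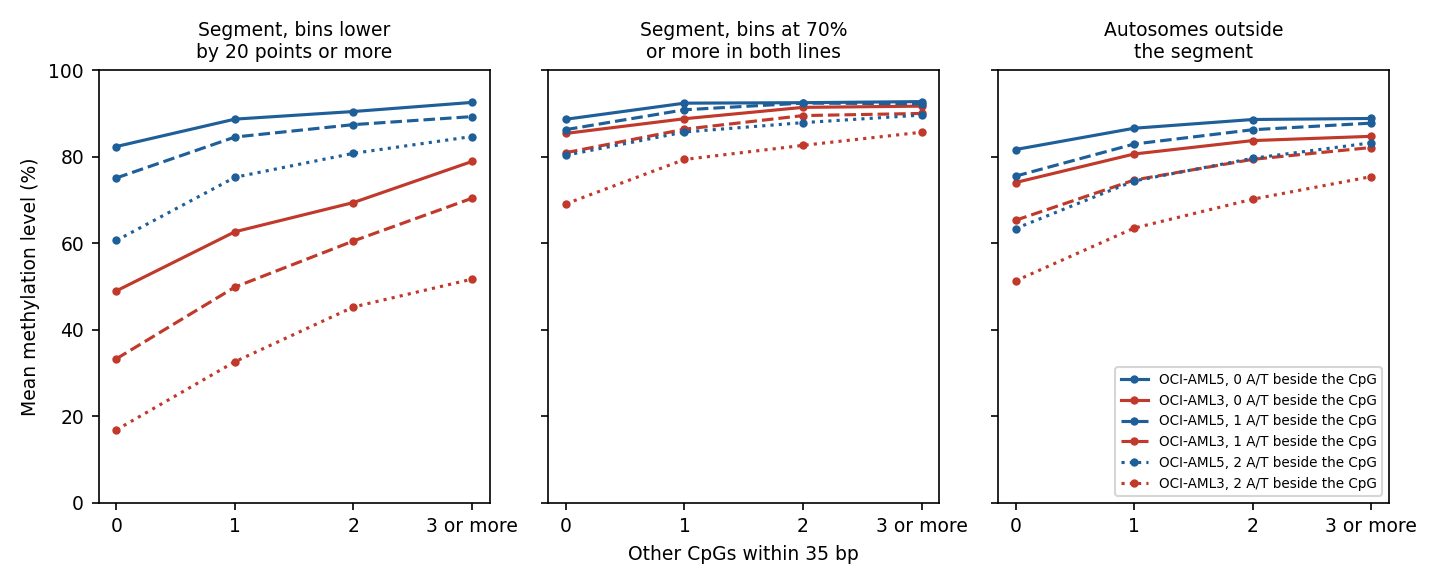
Mean methylation level (%) of CpGs outside islands by the number of other CpGs within 35 bp (x axis) and by how many of the bases on either side are A or T (line style), in both lines. In the bins past the 20-point limit the OCI-AML3 values run from 16.9% for solo CpGs with A or T on both sides to 78.9% for the dense class, and in the other panels the spread is smaller.

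CpG number per bin moved with the difference. In the 333 bins with the fewest listed CpGs (18 to 48) the median difference was -32.7 points and 276 of them were past the limit. In the middle 333 it was -28.6 points with 231 bins, and in those with the most CpGs (65 to 278) it was -14.8 points with 142 bins. Over the 999 bins, which share both libraries, Pearson's r between CpG number and difference was 0.386. The segment's bins held a median of 55 listed CpGs, against 78 over the nuclear genome. The part of CpG number and of depth in the difference was not tested.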

How the data were processed

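WGBS of OCI-AML3 and OCI-AML5 was analysed, 1 library per line. According to the study's methods, the authors sequenced paired-end libraries after bisulfite conversion with a spike-in of λ DNA, used hg19 as the genome and Bismark as the methylation caller. Per the processing notes, Bowtie 0.12.8 was used. Whether duplicate reads were removed is not given in the sources used here. What the authors deposited for each CpG is the counts of its methylated and its unmethylated calls, with both strands added and no normalization. Positions matched the G of each CpG in GRCh37 on every nuclear chromosome other than Y, where 75.002% of the listed positions did, and mitochondrial calls, of which 0.168% and 0.101% fell in the third column, showed that this column holds methylated calls.

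A level is the methylated share of calls at a CpG, and a region's level is the mean over CpGs read more than 5 times in both lines. A base that differs from the reference at a CpG is counted by its calls like any other and was not looked for. Regions needed 10 or more CpGs. Fisher's exact test was run per CpG over the nuclear genome, two-sided, with Benjamini-Hochberg adjustment, and was tested on simulated data. Share intervals are Wilson 95% intervals, and the upper limit for a count of 0 is 3 calls. Genes came from GENCODE lifted to GRCh37. The rule named every protein-coding gene that overlaps the segment with 10 or more such CpGs in its promoter window or body, and 2 of the 20 are not reported here. The members and lists were chosen with earlier results of these data known. Alternatives changed the read minimum, bin size, limits, windows and averaging. Sequences were read from the GRCh37 genome by coordinates, and the windows were chosen by levels. Python 3.11.15, numpy 2.4.6, scipy 1.17.1, pandas 2.3.3 and numba 0.67.0 were used.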

Additional observations from a re-analysis of the deposited data

How the results depend on the processing

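The segment stayed lower in OCI-AML3 under each alternative tried. Its difference was -21.1 points with 10 or more reads in both lines, -23.3 with 1 or more, -21.4 with 10 to 60 reads, -21.3 as the share of pooled calls, -26.0 as the mean over bins, -23.4 without CpG-dense islands, -22.2 with limits 1 Mb earlier and -21.1 with limits 1 Mb later. Bins lower by 20 points or more numbered 336 with bins of 20 kb (67.2%) and 135 with bins of 50 kb (67.5%), where there are fewer bins, and 425 of the 10 kb bins were lower by 30 points or more. CpGs lower by Fisher's exact test numbered 11292 to 13879 under its alternatives. The share of bins under 70% in OCI-AML3 alone was 58.6% with a limit of 60% and 31.3% with a limit of 80%. The longest run of bins past the limit, under alternatives chosen after seeing the data, was 1430 kb with no other bin between and 4850 kb with up to 3. Solo CpGs had 30.9% and 62.2% with no other CpG within 50 bp. Of 93 alternatives for promoters and gene bodies, those with pooled calls chosen after seeing the data, 10 changed sign, and none of these was past 20 points at first. The promoter of UNC5C went from -0.99 points to 11.9 with 1000 bp on either side, that of BMPR1B from -16.9 to -22.2, and that of ATOH1 from 11.8 to 20.6. As a share of pooled calls the body of BMPR1B went from 3.49 to -0.53 and that of METAP1 from -2.29 to -9.69. That of ADH5 went from -2.20 to -6.70 and that of PDLIM5 from -4.99 to -11.3. Without the promoter window the mean differences of these bodies were, in the same order, 4.37, -2.09, -0.93 and -5.44 points. Calls per CpG in their promoter windows averaged 42.3 to 44.5 in OCI-AML3 and 24.1 to 34.8 in OCI-AML5. The part of this depth in the pooled values was not tested. No paired analysis was possible because each line has 1 library. Depth limits single CpGs, some of which rest on 6 calls in a line.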
